A study of Homo sapiens with 17 samples.

Results

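Vault RNAs were followed as short fragments in small RNA libraries of K562, a human erythroleukemic cell line, through the 4 RNAs VTRNA1-1, VTRNA1-2, VTRNA1-3 and VTRNA2-1. Members were every listed alignment with at least 50% of its length in the window of 1 of these RNAs on chromosome 5 of the human build hg19. These windows were chr5:140090859-140090957 on the plus strand for VTRNA1-1, chr5:140098509-140098598 on the plus strand for VTRNA1-2, chr5:140105609-140105711 on the plus strand for VTRNA1-3 and chr5:135416187-135416286 on the minus strand for VTRNA2-1. They held 2178 of the 14415896 distinct alignments that the 8 tables list. The VTRNA1-3 window held 1 alignment, whose ratio was 0. The annotated distance from VTRNA1-1 to VTRNA1-2 is 7650 nt, as between their windows, whereas that from VTRNA1-1 to VTRNA1-3 is 14883 nt, against 14750 nt between the windows. A stretch of the annotated VTRNA1-3 length at the annotated distance, chr5:140105742-140105830, was therefore added after the data were seen. It held 372 alignments and is called the VTRNA1-3 stretch.

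All cells carried an inducible hairpin directed at Drosha, which cuts primary microRNA transcripts in the nucleus, under a doxycycline (Dox) switch. They were kept with 1 µg/mL Dox or, in parallel, with water for 3, 13 or 31 d, in 2, 3 and 3 independent biological pairs, so that the controls carry the hairpin too. Libraries were gel-purified at 20 to 40 nt. Each of the 8 tables gives, per alignment, the deposited ratio of the Dox and the water library of 1 pair. Neither the tables nor the labels say which of them is the numerator. Values are therefore given as numerator over denominator library with no Dox direction, on the assumption that the tables share 1 direction. An untreated library was not analysed here.

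Vault RNAs are short noncoding RNAs made by RNA polymerase III, and several of them are part of the vault, a large ribonucleoprotein particle of the cytoplasm. Their transcripts fold into a stem formed by both ends, and short fragments of these ends, some cut by Dicer, the cytoplasmic nuclease that trims microRNA precursors, are known to occur in cells. VTRNA1-1 is known to bind the autophagy receptor p62. VTRNA2-1, also called nc886 and once listed as the microRNA precursor hsa-mir-886, is known to bind the kinase PKR and is not a stable part of the vault particle.

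The 4 RNAs are shown to place the fragments described here. They are GENCODE transcripts of build GRCh38, 5′ to 3′, and the first base of the window was taken as the first base of the transcript. A 5′-end fragment starts within 10 nt of that base, a 3′-end fragment ends within 10 nt of the last base of the window, and all others are internal. Capitals mark, for each RNA, the 5′-end and the 3′-end fragment with the highest mean log2 ratio among fragments with a ratio above 0 in all 8 tables.
VTRNA1-1: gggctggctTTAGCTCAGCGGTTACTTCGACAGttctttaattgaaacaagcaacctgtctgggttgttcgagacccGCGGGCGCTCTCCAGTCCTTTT
VTRNA1-2: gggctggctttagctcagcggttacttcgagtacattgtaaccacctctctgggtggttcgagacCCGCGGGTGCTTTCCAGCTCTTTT
VTRNA1-3: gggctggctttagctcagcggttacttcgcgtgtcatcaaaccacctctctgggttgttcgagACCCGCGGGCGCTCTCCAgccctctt
VTRNA2-1: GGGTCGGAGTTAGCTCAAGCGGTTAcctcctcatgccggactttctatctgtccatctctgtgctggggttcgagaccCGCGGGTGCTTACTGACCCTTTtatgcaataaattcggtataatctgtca
VTRNA1-2 and the VTRNA1-3 stretch had no 5′-end fragment above 0 in all 8 tables, so none is marked. The marked 5′-end fragment of VTRNA2-1 begins 1 base before the annotated transcript, at position 0, and that base is not shown. The VTRNA2-1 window is 100 nt and its printed transcript 128 nt, so its 3′-end fragments lie at the end of the window, not of the transcript. The first 29 nt are identical in the 3 VTRNA1 transcripts, and a fragment wholly inside them cannot be placed. No such fragment entered a test at 13 d. The other days were not counted, but 15-nt 5′-end fragments of VTRNA1-1, VTRNA1-2 and the stretch entered tests at 31 d. These end inside the shared bases, and none was called. The marked fragments of VTRNA1-1 and VTRNA1-2 each occur in 1 annotated gene, those of VTRNA1-3 and VTRNA2-1 in 2, so that part of their reads may come from a copy. The marked 18-nt fragment of VTRNA1-3, from position 64, has the same bases as VTRNA1-1 from position 74. Fragments of 15 to 19 nt from these 2 positions match each other too and cannot be placed either, and they did enter tests. The same holds for other tested fragments nearby, such as those of 17 nt from position 73 of VTRNA1-1 and position 63 of the stretch. Values of VTRNA1-1 and of the stretch thus rest in part on fragments that cannot be told apart. The marked 3′-end fragments resemble each other: those of VTRNA1-2 and VTRNA2-1 share CGCGGGTGCTT, and those of VTRNA1-1 and VTRNA1-3 share GCGGGCGCTCTCCA.

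The tables listed 871027 to 3428554 alignments each, 10 to 42 nt long, and the ratio was 0 in 73.2% to 93.1% of them. Read numbers per library were not used, so depth is unknown and no counting interval can be given. In the vault windows and the stretch 25.2% to 74.2% of a table's fragments had a ratio above 0, leaving aside the single VTRNA1-3 alignment. Each RNA was summarised by the median log2 ratio of its fragments above 0 in all 8 tables, which were 27 of 986 for VTRNA2-1, 40 of 577 for VTRNA1-2, 19 of 614 for VTRNA1-1 and 7 of 372 for the stretch. Fragments with a ratio of 0 in any table were thus left out, which can raise a median. A value above 0, or a test of it against 0, is not free of this choice. The same was done for 1773 windows of the whole genome. Their medians were shifted between tables, from 0.62 to 1.67 at 3 d, from -0.37 to 0.90 at 13 d and from -0.66 to 0.54 at 31 d. Messenger RNA of the targeted gene is not measured here. In a short site of DROSHA chosen with earlier results of these tables known, the median log2 ratio on the plus strand averaged 8.98 at 3 d, 9.43 at 13 d and 7.61 at 31 d, and both strands were above 0 in all 8 tables. No direction was drawn from it.

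At 13 d fragments of VTRNA2-1 were higher in the numerator libraries, by 5.81-fold at the median fragment, where 14.4% of all windows were called higher. This was the only vault RNA past the threshold on that day. The call rests on counting fragments by overlap with the window, a rule chosen after the data were seen. Under the planned rule, which takes only fragments whose 5′ end lies in the window, VTRNA2-1 did not pass. Its 5′-end and 3′-end fragments passed as ratios against 0 on that day, and its internal fragments did not. The change of either end at 13 d against 3 d did not pass (limma adjusted p = 0.209 and 0.265). VTRNA1-1 was higher at 3 d, by 5.47-fold, on a day when 21.7% of all windows were called higher, and lost that call once each table was centred on its median window (log2 ratio 1.31, limma adjusted p = 0.213). VTRNA1-2 was above 0 in all 8 tables, and in 7 of them after centring, without passing on any single day. At 13 d 13 of its 75 tested single fragments, all from the 3′ end, were called higher, where 4.91% of all alignments were.

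VTRNA2-1 had median log2 ratios of 0.03 and 1.87 in the tables of 3 d. At 13 d its tables gave 2.44, 2.32 and 2.86. At 31 d they gave 1.23, 1.73 and 1.09. The tables of 13 d lay close together and above every other table, and those of 31 d lay within the span of 3 d. At 3 d the mean was 0.95 ± 0.75 (SE; limma, Benjamini-Hochberg adjusted p = 0.350), at 13 d 2.54 ± 0.62 (adjusted p = 0.00874) and at 31 d 1.35 ± 0.62 (adjusted p = 0.175). Among the 1773 windows 14.4% were called higher and 18.5% lower at 13 d, and 1.75% higher and 10.4% lower at 31 d. The 13 d call ended without replicate 3 of 13 d, where the value was 2.38 (limma adjusted p = 0.0722). It also ended under the planned rule, with only fragments whose 5′ end lies in the window, where the value was 1.38 (limma adjusted p = 0.136). In bulk cultures, a change in the cells present and a change in RNA per cell cannot be told apart.

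**Figure D1:**
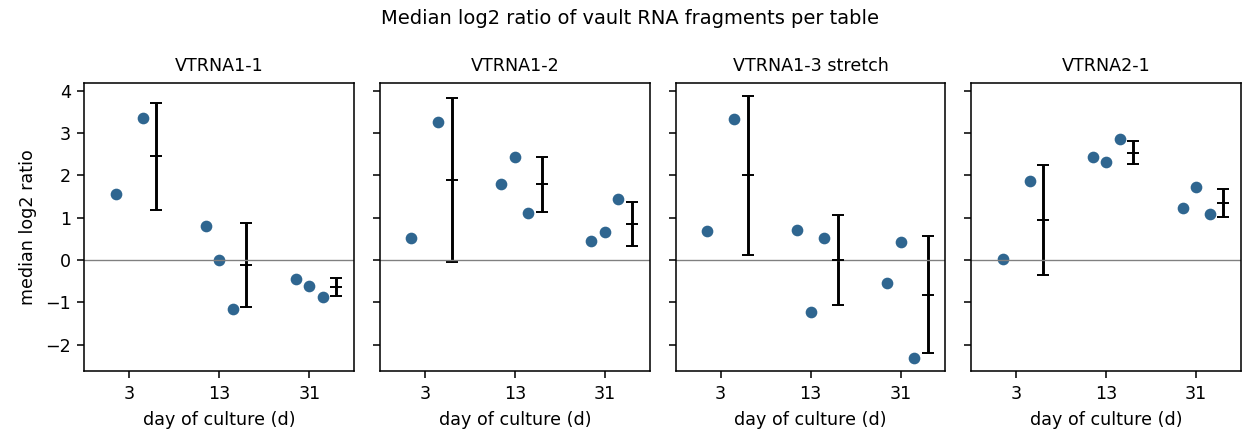
Each point is the median log2 ratio (numerator over denominator library) of an RNA's fragments in 1 table, by day of culture (x axis), with a panel per RNA; bars are the day mean and its SD (n = 2 at 3 d, 3 at 13 d and 31 d). The 3 tables of VTRNA2-1 at 13 d lie between 2.32 and 2.86, whereas VTRNA1-1 and the VTRNA1-3 stretch lie on both sides of 0 there.

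Among fragments above 0 in all 8 tables, the ends of VTRNA2-1 stood above its middle. Its 16 5′-end fragments had median log2 ratios of 1.26 and 2.10 at 3 d. Their tables gave 3.26, 4.51 and 2.96 at 13 d, then 2.26, 1.84 and 3.28 at 31 d, all above 0. Its 5 3′-end fragments gave 0.01 and 1.83 at 3 d, with 2.22, 2.09 and 4.06 at 13 d and 1.23, 2.92 and 1.09 at 31 d. These too were above 0 in all 8 tables, the first only just. Its 6 internal fragments lay on both sides of 0, with a mean of 0.01 ± 1.28 over the tables (SD, n = 8).

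Within a table the shift of that table cancels, and there 5′-end fragments of VTRNA2-1 exceeded its internal fragments by 2.68 ± 1.49 on the log2 scale (SD, n = 8). They did so in all 8 tables (exact two-sided sign-flip permutation p = 0.00781, the smallest that 8 tables can give, 0.0286 after adjustment over the 22 such tests made here). Its 3′-end fragments exceeded the internal ones by 1.92 ± 0.95, also in all 8 tables (SD; exact permutation p = 0.00781, adjusted 0.0286). Only fragments above 0 in all 8 tables entered, 16 of 94 listed at the 5′ end, 5 of 181 at the 3′ end and 6 of 711 internal. The classes passed this filter at unlike rates, so the differences between them are not free of it either. With classes in place of whole RNAs in the limma fit, 5′-end fragments were at 3.57 ± 0.63 at 13 d (SE; adjusted p = 0.00218) and 3′-end fragments at 2.79 ± 0.70 (SE; adjusted p = 0.0102), where 14.5% of the units were called higher. Internal fragments were at 0.80 ± 0.74 (SE; limma adjusted p = 0.462). At 31 d the 5′-end fragments were at 2.46 ± 0.63 (SE; limma adjusted p = 0.0219), where 1.80% of units were called higher. That call ended without any 1 of the 3 tables of 31 d (limma adjusted p = 0.0521 to 0.149), and the 3′-end call of 13 d ended without replicate 3 of 13 d, at 2.15 (limma adjusted p = 0.112).

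**Figure D2:**
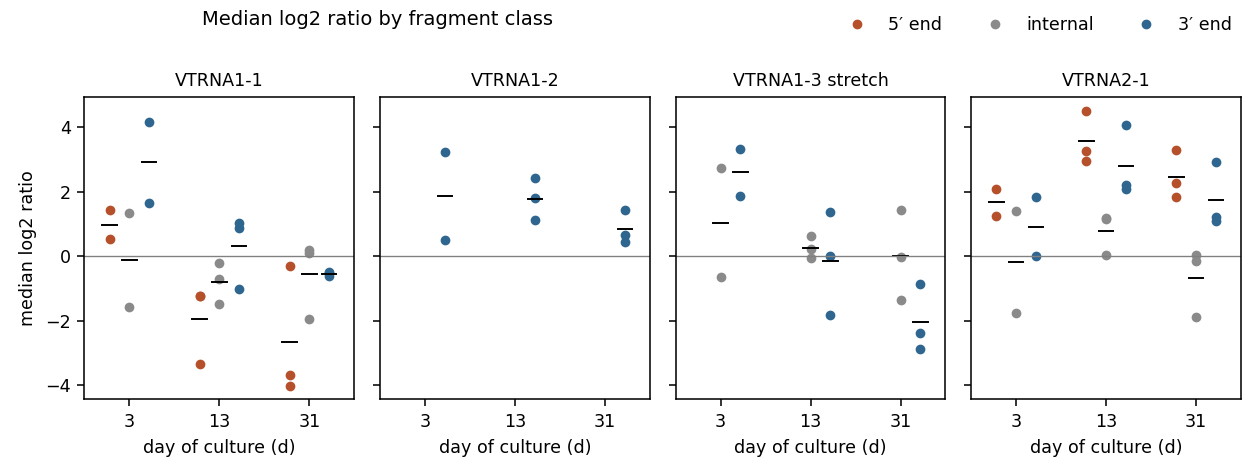
Points are the median log2 ratio of the fragments of 1 class in 1 table, by day of culture (x axis) and class (colour), and lines are the mean of a day. In VTRNA2-1 the 5′-end and 3′-end fragments lie above 0 in all 8 tables and above the internal ones; VTRNA1-2 has 3′-end fragments only, and the 5′-end points of VTRNA1-1 rest on 2 fragments.

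Single fragments were tested across all alignments above 0 in every table of a day. That fit found 1 common variance, so that each fragment had the same SE, 1.36 at 3 d and 1.11 on the later days, and a p does not measure the spread of a fragment's own tables. At 13 d 13 of 33 tested VTRNA2-1 fragments were called higher and none lower, where 4.91% of 69772 alignments were called higher and 3.82% lower. Of these, 12 came from the 5′ end and 1 from the 3′ end, the 22-nt fragment marked above. All 12 started at positions -2 to 0, before the first base of the window, so that the planned rule leaves them out. Of the 5′-end fragments, 9 began at position 0, with lengths of 18 to 27 nt and log2 ratios of 3.24 to 4.46 (limma adjusted p up to 0.0442). The 17-nt and 28-nt fragments from the same base were at 1.74 and 1.54 and did not pass (limma adjusted p = 0.319 and 0.387).

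From position 0 the 24-nt fragment was at 4.21 and the 22-nt fragment at 3.69 (limma adjusted p = 0.00941 and 0.0221). From 1 base later, at position 1, the 22-nt, 23-nt and 24-nt fragments were at 2.30, 2.72 and 1.57, and none passed (limma adjusted p = 0.168, 0.0961 and 0.377). Differences between these starts were not tested. The highest called fragment began 1 base earlier, at position -1 (chr5:135416264-135416288, 25 nt). Its log2 ratio was -3.02 and 3.02 at 3 d. At 13 d its tables gave 4.90, 8.82 and 2.80, with a mean of 5.51 (limma adjusted p = 0.000384). At 31 d they gave 2.88, 1.67 and 4.43. It also rose at 13 d against 3 d, by 5.51 ± 1.75 (SE; limma adjusted p = 0.0229), where 0.194% of 34539 alignments were called higher, yet its tables spread over more than its own mean.

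The 22-nt 3′-end fragment of VTRNA2-1 (chr5:135416187-135416208) had log2 ratios of 0.01 and 2.32 at 3 d. At 13 d it had 5.40, 4.18 and 4.19, and at 31 d 3.09, 3.33 and 4.32. Every table of 13 d and 31 d was thus above both tables of 3 d. Its mean at 13 d was 4.59 (limma adjusted p = 0.00429), while fragments of 16, 17 and 18 nt from the same base were at 2.30, 2.26 and 2.79 and did not pass. At 31 d 2 of 49 tested VTRNA2-1 fragments were higher and 1 was lower, where 0.204% of 123762 alignments were called higher and 1.04% lower. The highest was the 21-nt form of the same 3′ fragment, at 3.90 (limma adjusted p = 0.0397). The lower one was internal, 19 nt from position 41, at -4.26 (limma adjusted p = 0.0172). At 3 d none of 77 tested VTRNA2-1 fragments was called by limma, nor had any an unadjusted p under 0.05.

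**Figure D3:**
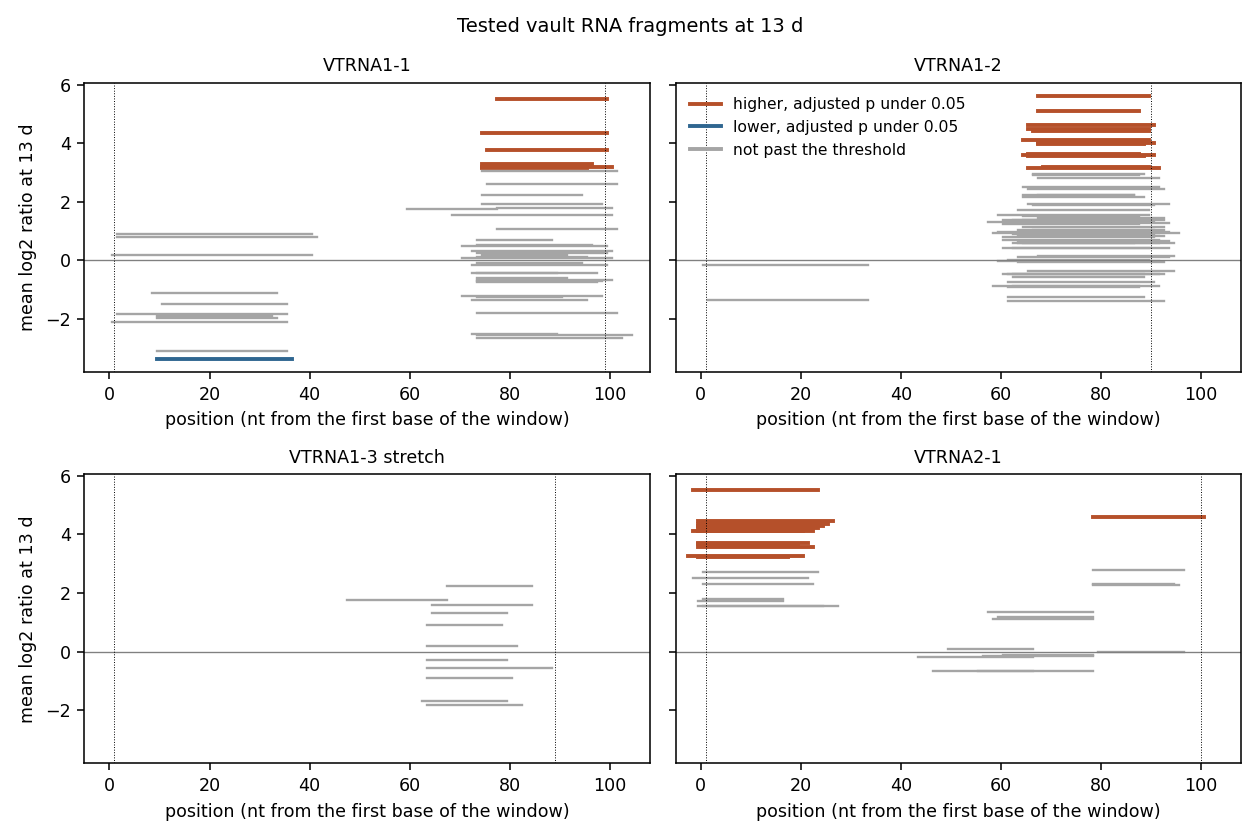
Each line is 1 tested fragment at 13 d, drawn from its first to its last base (x axis, nt from the first base of the window) at its mean log2 ratio over 3 tables; dotted lines are the window's ends. Called fragments of VTRNA1-2 sit at its 3′ end, those of VTRNA2-1 mostly at its 5′ end, and the only lower one in VTRNA1-1 starts at position 10.

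VTRNA1-2 yielded only 3′-end fragments above 0 in all 8 tables. Its median log2 ratios were 0.51 and 3.25 at 3 d. At 13 d they were 1.80, 2.43 and 1.12, and at 31 d 0.44, 0.67 and 1.45. All 8 tables were above 0, and replicate 3 of 3 d stood highest. Over the tables the mean was 1.46 ± 1.00 (SD, n = 8; exact sign-flip permutation p = 0.00781, adjusted 0.0286). After each table was centred on its median window, 7 of 8 tables were above 0 and the mean was 1.13 ± 1.03, which did not pass (SD, n = 8; exact permutation p = 0.0156, adjusted 0.0625). At 3 d the mean was 1.88 ± 0.83 (SE; limma adjusted p = 0.112), where 21.7% of windows were called higher. At 13 d it was 1.78 ± 0.68 (SE; limma adjusted p = 0.0603) and at 31 d 0.85 ± 0.68 (SE; limma adjusted p = 0.450), so that no day passed.

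At 13 d 13 of 75 tested VTRNA1-2 fragments were called higher and none lower, where 4.91% of all alignments were called higher and 3.82% lower. They started at positions 65 to 69 and were 20 to 26 nt long. The highest was the 22-nt fragment from position 68 (chr5:140098576-140098597), which ends on the last annotated base. Its log2 ratio was 0.58 and 3.27 at 3 d. At 13 d it was 4.93, 6.02 and 5.87, a mean of 5.60 (limma adjusted p = 0.000257). At 31 d it was 2.71, 3.61 and 3.93. Every table of 13 d stood above all tables of the other days.

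VTRNA1-2 fragments are given here by start and by end. Differences between starts or between ends were not tested, and each fragment had the same SE, 1.11 at 13 d. The fragments from position 68 above 0 in all 8 tables had a median log2 ratio averaging 1.97 at 3 d, 3.73 at 13 d and 1.84 at 31 d. Those from position 65 averaged 2.48, 2.11 and 1.22 on these days, and those from position 64 2.03, 0.86 and -0.12. From position 68, the 20-nt to 23-nt fragments were at 3.96 to 5.60 at 13 d, and the 24-nt, 25-nt, 26-nt and 27-nt fragments at 2.82, 1.46, 1.27 and 0.14. From position 65 the 25-nt fragment, which ends on the same base as the highest one, was at 4.11 (limma adjusted p = 0.0108), against 2.17 for the 24-nt and 0.58 for the 30-nt fragment (limma adjusted p = 0.198 and 0.789). From position 64 none of 8 tested fragments passed, and the highest, again the one ending on that base, was at 1.71 (limma adjusted p = 0.327).

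Grouped by length at 13 d, 11 of the 27 tested VTRNA1-2 fragments of 20 to 25 nt were higher, with a median of 2.82, and 2 of the 45 longer ones, with a median of 0.67. In VTRNA2-1 10 of 20 fragments of 20 to 25 nt were higher, with a median of 2.99, as were 2 of the 3 longer ones. Of all tested alignments of that day, 3.71% of the 14013 of 20 to 25 nt were called higher and 0.213% of the 9393 longer ones. Ratios of whole tables also went with length. Over the 26250 alignments above 0 in all 8 tables, log2 ratio and length correlated at -0.54 in replicate 3 of 13 d and -0.77 in replicate 2 of 31 d, and at -0.22 to 0.18 in the other tables, across alignments, which are not independent. The part of this in the split by length was not tested fragment by fragment. Relative to alignments of the same length, VTRNA1-2 was at 1.92 at 13 d (limma adjusted p = 0.0154), where 377 of 1773 windows were called higher and 428 lower.

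**Figure D4:**
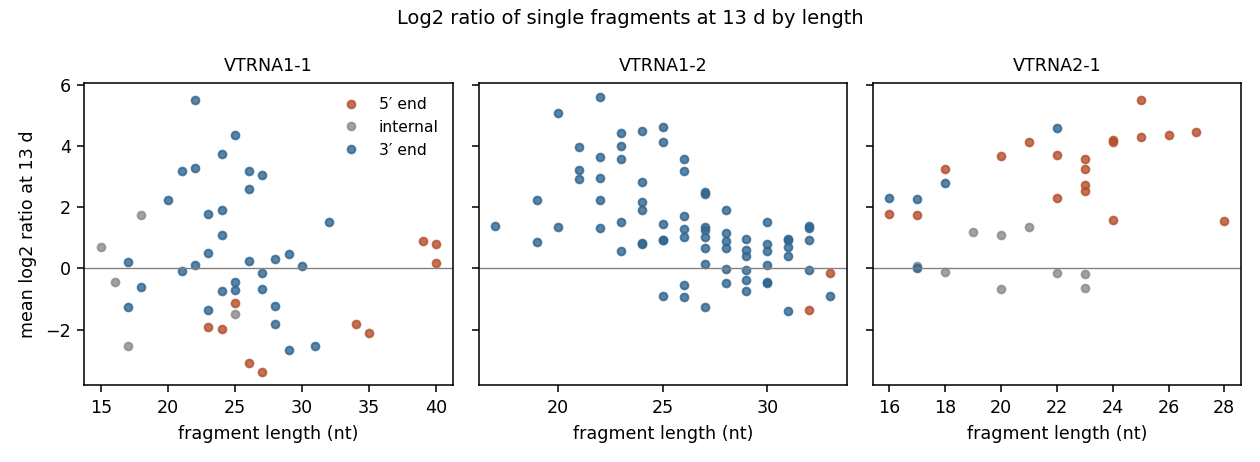
Mean log2 ratio of single tested fragments at 13 d (y axis) against their length in nt (x axis), coloured by class. The VTRNA1-2 fragments of 20 to 25 nt have a median of 2.82 and the longer ones of 0.67, while 5′-end fragments of VTRNA2-1 lie at 1.54 or higher at every length.

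VTRNA1-1 differed between days rather than by a steady sign. Its median log2 ratios were 1.56 and 3.34 at 3 d. At 13 d they were 0.80, 0.01 and -1.16, and at 31 d -0.44, -0.61 and -0.86. Both tables of 3 d lay above all others, and all tables of 31 d lay below 0. The 3 d mean was 2.45 ± 0.79 (SE; limma adjusted p = 0.0431), where 21.7% of windows were called higher. The mean of 13 d was -0.12 ± 0.65 and that of 31 d -0.64 ± 0.65 (SE; limma adjusted p = 0.920 and 0.542). At 31 d against 3 d the difference was -3.09 ± 1.02 (SE; limma adjusted p = 0.0395), where 1.24% of windows were called higher and 27.4% lower. After each table was centred on its median window the 3 d value was 1.31 and the difference -1.99 (limma adjusted p = 0.213 and 0.120). Both calls ended without replicate 3 of 3 d, at 1.56 and -2.20 (limma adjusted p = 0.391 and 0.219). The 3 d call also ended without replicate 1 of 3 d, replicate 1 or 2 of 13 d, or replicate 1 or 3 of 31 d (limma adjusted p = 0.0546 to 0.0692), and the difference without replicate 2 of 13 d or any table of 31 d (limma adjusted p = 0.0532 to 0.0918).

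By class at 3 d, the 3′-end fragments of VTRNA1-1 were at 2.91 ± 0.85 (SE; limma adjusted p = 0.0273), where 21.7% of units were called higher, and internal ones at -0.12 ± 0.90 (SE; limma adjusted p = 0.922). After centring the 3′-end value was 1.77 and did not pass (limma adjusted p = 0.119). The difference of the 3′-end fragments at 31 d against 3 d was -3.45 ± 1.09 (SE; limma adjusted p = 0.0324), where 27.4% of units were lower. It ended without replicate 3 of 3 d or replicate 1 or 3 of 31 d (limma adjusted p = 0.229, 0.0853 and 0.0547), and the 3 d call without replicate 3 of 3 d (limma adjusted p = 0.374). Over the 8 tables its 3′-end fragments stood 1.17 ± 1.70 above internal ones, which did not pass (SD, n = 8; exact sign-flip permutation p = 0.0938, adjusted 0.138). Its 4 internal fragments include 1 of 17 nt from position 73 and 1 of 16 nt from position 74, starts that 3′-end fragments share. Setting its 3′-end against its internal fragments is thus in part a comparison of lengths, not of the end with the middle.

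Fragments of VTRNA1-1 that start 1 to 4 bases apart are given side by side here, and differences between starts were not tested. From position 74, where 9 of its fragments above 0 in all tables begin, the median averaged 3.48 at 3 d, and -0.27 and -0.94 on the later days. The 26-nt fragment from that base (chr5:140090932-140090957) was at 3.81 and 5.18 at 3 d, 1 of 44 tested there and the only one called (mean 4.49, limma adjusted p = 0.0344; 2.89% of 111976 alignments were called higher, near the 1 of 44). At 13 d it was 0.89, 1.12 and -1.29, and at 31 d -0.51, -1.19 and 0.61. The 27-nt fragment from the same base was lower at 31 d than at 3 d, with a log2 difference of -5.57 (limma adjusted p = 0.0361). It was 1 of 24 tested there, near the 4.84% of 41756 alignments that were called lower, and after each table was centred on its median alignment 7 of the 24 were.

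At 13 d none of the 14 tested VTRNA1-1 fragments from position 74 passed, whereas 6 from positions 75, 76 and 78 were called higher among 48 tested, where 4.91% of all alignments were. The highest was the 22-nt fragment from position 78, marked in capitals above (chr5:140090936-140090957). Its log2 ratio was 1.15 and 4.48 at 3 d. At 13 d it was 4.24, 7.84 and 4.40, a mean of 5.49 (limma adjusted p = 0.000396). At 31 d it was 2.68, 4.89 and 3.16, so that all 8 tables were above 0. It ends on the last base of the transcript, as do the 24-nt fragment from position 76 and the 21-nt fragment from position 79, the 2 of 47 called higher at 31 d, where 0.204% of all alignments were, at 3.85 and 4.04 (limma adjusted p = 0.0438 and 0.0295).

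The 5′ end of VTRNA1-1 gave few values. Its 2 fragments above 0 in all tables, both from position 10, had a median of 1.45 and 0.53 at 3 d. Their tables gave -1.24, -1.22 and -3.34 at 13 d, and -0.31, -4.01 and -3.68 at 31 d. They were above 0 in both tables of 3 d and below 0 in the other 6. The 27-nt fragment from that base (chr5:140090868-140090894) was the only VTRNA1-1 fragment called lower at 13 d, at -3.36, with -1.09, -3.70 and -5.31 in its tables (limma adjusted p = 0.0362). The 23-nt, 24-nt and 26-nt fragments were at -1.91, -1.96 and -3.10 and did not pass. Position 10 lies in the shared start of the VTRNA1 RNAs, but these fragments reach beyond it.

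The VTRNA1-3 stretch rested on 7 fragments, of which 5 started at position 64. Fragments of 15 to 19 nt from there have the same bases as VTRNA1-1 from position 74. The 17-nt fragment from position 63 matches VTRNA1-1 from position 73 in the same way. Values of the stretch can therefore not be assigned to VTRNA1-3 alone. Its median log2 ratios were 0.68 and 3.32 at 3 d. At 13 d they were 0.70, -1.22 and 0.52, and at 31 d -0.54, 0.42 and -2.32. The days overlapped, and the means of 2.00 ± 0.93 at 3 d, -0.00082 ± 0.76 at 13 d and -0.81 ± 0.76 at 31 d did not pass (SE; limma adjusted p = 0.127, 0.999 and 0.512). None of its 17, 11 and 18 tested fragments was called at 3 d, 13 d or 31 d by limma, while 3, 1 and 2 had an unadjusted p under 0.05. Its 3 3′-end fragments were lower at 31 d than at 3 d, by -4.64 ± 1.17 (SE; limma adjusted p = 0.0120), where 27.4% of units were called lower. That call ended without replicate 3 of 3 d, at -3.92 (limma adjusted p = 0.0972). The fragments of 15 to 25 nt from position 64, its most frequent start, were between -1.83 and 0.92 at 13 d.

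Over all 8 tables VTRNA2-1 averaged 1.69 ± 0.90 and was above 0 in each (SD; exact sign-flip permutation p = 0.00781, adjusted 0.0286). Only fragments above 0 in all 8 tables entered, while in replicate 1 of 3 d 27.0% of those listed for VTRNA2-1 were above 0. The test against 0 therefore gives no support by itself, for VTRNA2-1 or for VTRNA1-2. After centring VTRNA2-1 was above 0 in 7 of 8 tables, with a mean of 1.37 ± 1.23 that did not pass (SD, n = 8; exact permutation p = 0.0234, adjusted 0.0625). VTRNA1-1 averaged 0.33 ± 1.51 and the VTRNA1-3 stretch 0.19 ± 1.66 (SD, n = 8; exact permutation, adjusted p = 0.679 and 0.758). No difference between 2 vault RNAs passed after adjustment. The nearest was the stretch minus VTRNA1-2, -1.26 ± 1.57, negative in 6 of 8 tables (SD; exact permutation p = 0.0313, adjusted 0.0625). VTRNA1-2 stood 1.13 ± 1.24 above VTRNA1-1 and VTRNA2-1 1.37 ± 1.92 above it, each in 6 of 8 tables (SD; exact permutation, adjusted p = 0.106 and 0.110). VTRNA2-1 minus VTRNA1-2 was 0.24 ± 1.00 (SD, n = 8; exact permutation p = 0.531), with single tables between -1.38 and 1.74.

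The hairpins of the miR-17-92 cluster on chromosome 13, whose primary transcript Drosha cuts, served as the comparison for transcripts not known as Drosha substrates. Their window was taken from earlier results of these data. Their median log2 ratio averaged 1.46 ± 2.02 at 3 d (SD, n = 2), -1.41 ± 1.10 at 13 d and -1.52 ± 0.71 at 31 d (SD, n = 3 each). VTRNA1-2 stood 2.19 ± 1.31 above them and VTRNA1-1 1.06 ± 0.57, each in all 8 tables (SD; exact sign-flip permutation p = 0.00781, adjusted 0.0286). Centred on the median window, VTRNA1-1 averaged 0.0015 ± 0.95 (SD, n = 8). On average its excess over the cluster was thus no more than that of the median window, and is not particular to a vault RNA. VTRNA2-1 stood 2.43 ± 2.11 above them in 6 of 8 tables, the exceptions being both tables of 3 d (SD; exact permutation p = 0.0313, adjusted 0.0625). Over the 6 tables of 13 d and 31 d the difference was 3.41 ± 1.22 for VTRNA2-1, 2.78 ± 0.85 for VTRNA1-2 and 1.09 ± 0.58 for VTRNA1-1, positive in 6 of 6 (SD, n = 6). Each of these had the smallest exact permutation p that 6 tables can give, 0.0313, and 0.0625 after adjustment. The stretch did not pass in either set (exact permutation, adjusted p = 0.172 and 0.283). Centred on the median window, VTRNA1-2 averaged 1.13 ± 1.03 and VTRNA2-1 1.37 ± 1.23 over the 8 tables (SD, n = 8). Both are below the excess over the cluster in those tables, so part of that excess is that of the median window. In every table of 13 d and 31 d the cluster also lay below the median window.

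Between 13 d and 3 d no whole vault RNA passed, where 0.677% of windows were called higher and 26.0% lower. The difference was 1.59 ± 0.97 for VTRNA2-1, -0.10 ± 1.07 for VTRNA1-2 and -2.57 ± 1.02 for VTRNA1-1 (SE; limma adjusted p = 0.283, 0.956 and 0.0898). At 31 d against 13 d it was -1.19 ± 0.87 for VTRNA2-1, -0.93 ± 0.96 for VTRNA1-2 and -0.52 ± 0.92 for VTRNA1-1 (SE; limma adjusted p = 0.722, 0.797 and 0.896). None of the 1773 windows was called in that contrast by limma, 0.0% in either direction, while 104 had an unadjusted p under 0.05. A difference between 31 d and 13 d was thus not detectable for any vault RNA.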

How the data were processed

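Small RNA of K562 cells was sequenced from 17 libraries, 8 with Dox, 8 with water and 1 untreated. The submitters' processing notes name Bowtie2 2.2.9 and hg19 (GRCh37); the placing of reads with several positions was not stated. The authors deposited 1 table per pair without a header, and the value used is their deposited ratio of 1 library over the other. The 32 other value columns name no library and were not used, so the planned sums, read shares, read minimums and fragments ranked by reads were replaced.

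An RNA's value is the median log2 ratio, with no pseudocount, of its alignments above 0 in all 8 tables; windows of 100 nt by strand with at least 3 such alignments were treated alike. Alignments with at least 50% of their length in a vault window were counted in place of the planned 5′-end rule, because VTRNA2-1 fragments start 1 nt outside it. This choice, the medians, the VTRNA1-3 stretch, the classes and the comparisons between RNAs were made after seeing the data. Limma 3.58.1 under R 4.3.3, with robust empirical Bayes, fitted 1 mean per day over 8 tables, and p-values were adjusted by Benjamini-Hochberg over all windows, or all alignments above 0 in that day's tables, at 0.05. It was tested on simulated data. Values over tables had exact two-sided sign-flip permutation tests. Named fragments were the 3 5′ ends per RNA with most fragments above 0 in all tables, the highest and lowest called fragment per day, and fragments that share their ends. Members and lists were chosen with earlier results of these data known.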

Additional observations from a re-analysis of the deposited data

Results flagged for a closer look

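In 3 results for vault RNAs or classes with at least 3 fragments, every table of 1 day lay on 1 side of 0 and every table of another day on the opposite side. The median log2 ratio of VTRNA1-1 averaged -0.64 at 31 d and 2.45 at 3 d. Its 3′-end fragments averaged -0.53 at 31 d and 2.91 at 3 d. The 3′-end fragments of the VTRNA1-3 stretch, 3 in number, averaged -2.04 at 31 d and 2.60 at 3 d. Those up to 19 nt have the same bases as VTRNA1-1 from position 74, so this result is not separate from that of VTRNA1-1. Each difference between the days rests on the same tables that showed the opposite signs, so its test adds no support. For VTRNA1-1 as a whole it was -3.09 (limma adjusted p = 0.0395), and the call of each of the 3 ended without replicate 3 of 3 d.

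The same held for the 2 5′-end fragments of VTRNA1-1, which averaged -1.93 at 13 d and -2.67 at 31 d, against 0.99 at 3 d. It held for the miR-17-92 cluster too, at -1.41 and -1.52 on the later days against 1.46 at 3 d. The difference of the 5′-end fragments was not tested, and for the cluster the differences from 3 d, -2.87 at 13 d and -2.98 at 31 d, did not pass (limma adjusted p = 0.0892 and 0.0673). The median of all windows was also 1.30 lower at 31 d than at 3 d on the log2 scale, and 27.4% of windows were called lower. After centring, the difference of 31 d minus 3 d was -1.99 for VTRNA1-1 and -2.34 for its 3′-end fragments, and neither passed (limma adjusted p = 0.120 and 0.0921). That of the 3′-end fragments of the stretch was -3.54 and passed (limma adjusted p = 0.0254).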

How the results depend on the processing

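Of the alternative values for whole RNAs, counts of windows and tests over tables, 470 kept their direction and side of the threshold, 13 gained a call, 24 lost one, 29 counts moved by over 1.5 times and none reversed; the causes were not tested. VTRNA1-1 at 3 d lost its call after centring (1.31), with each day fitted alone (2.45), on fragments above 0 in that day's tables (1.72), as a mean (2.15) and with at least 1 alignment per window (2.45), and was 1.56 to 3.34 with 1 table left out, where 6 of 8 omissions ended it. Its difference of 31 d minus 3 d lost its call after centring (-1.99), as a mean (-2.55) and with at least 1 alignment (-3.09), and was -3.98 to -2.20 with 1 table left out; that of 13 d minus 3 d passed relative to length (-3.20). VTRNA1-2 at 13 d passed from 18 nt (1.78), relative to length (1.92), as a mean (2.09) and with at least 5 alignments (1.78), and was 1.46 to 2.12 with 1 table left out. VTRNA2-1 at 13 d was 1.38 by 5′ ends, 2.38 without the 2 tables that follow length most (limma adjusted p = 0.0545), and 2.38 to 2.65 with 1 table left out; at 31 d it passed from 18 nt (2.25) and relative to length (1.89). Relative to length the VTRNA1-3 stretch passed at 3 d (2.31), for 13 d minus 3 d (-2.56) and for 31 d minus 3 d (-3.18). In that setting 702 of 1773 windows were called higher at 3 d, and 596 and 666 lower in these differences. The stretch minus VTRNA1-2 passed from 18 nt (-1.27). After centring, the means over tables of VTRNA1-2 (1.13) and VTRNA2-1 (1.37) lost their calls, an alternative chosen after seeing the data. Uncentred means over tables that passed had an exact permutation p of 0.0156 with any 1 table left out. All 8 tables were above 0 in each, which fixed that p in advance, so it adds no support.

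Called windows numbered 401 at 3 d: 242 from 18 nt, 849 relative to length, 63 on that day's fragments, 166 with at least 5 alignments, 3423 with at least 1, and 2 to 485 with 1 table left out. At 13 d 584 became 368 from 18 nt, 1479 on that day's fragments, 252 with at least 5, 2656 with at least 1, 263 without the 2 tables and 211 to 666 with 1 left out. At 31 d 215 became 126 with the day alone, 454 relative to length, 137 with at least 5, 357 with at least 1, 76 without the 2 tables and 85 to 234. For 13 d minus 3 d 473 became 215 with at least 5, 2678 with at least 1 and 208 to 504, and for 31 d minus 3 d 508 became 824 relative to length, 256 with at least 5, 2001 with at least 1 and 28 to 525. Fewer windows enter from 18 nt or with at least 5 alignments, and more with at least 1. Centring changed the split of higher and lower calls from 385 and 16 to 227 and 236 at 3 d, from 12 and 461 to 176 and 350 for 13 d minus 3 d, and from 22 and 486 to 232 and 294 for 31 d minus 3 d. Relative to length the splits were 702 and 147 at 3 d, 162 and 292 at 31 d against 31 and 184, and 158 and 666 for 31 d minus 3 d.

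No paired analysis was possible because the deposited ratio is already taken within a pair and the separate library columns were not used. For the same reason the planned minimum of 50 reads, read counts, unpaired fit, variance trend on reads and share of reads were not run. Depth is unknown, and the direction of Dox is not known.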

Other observations

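On the same strand, alignments whose 5′ ends lay in the 40 nt after the VTRNA2-1 window had their highest medians on another day than the fragments inside it. The window is 100 nt and the printed transcript 128 nt, so part of these 40 nt lies inside the annotated RNA. Of those listed, 10 and 5 had a ratio above 0 at 3 d, with median log2 ratios of 3.46 and 3.09. At 13 d there were 19, 29 and 25, with medians of 1.11, 0.91 and 0.29. At 31 d there were 9, 8 and 11, with medians of -0.05, -2.09 and 0.72. These medians were highest at 3 d, whereas the fragments in the window were highest at 13 d. The stretch was picked after the data were seen, its fragments differ between tables, and it was not tested.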
